A study of Homo sapiens with 6 samples.

Results

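The genes described here are 10 members of the S100 family that lie on chromosome 1: S100A2, S100A4, S100A6, S100A7, S100A8, S100A9, S100A10, S100A11, S100A14 and S100A16. They were taken by symbol from a table of transcript abundances summed to 27852 gene symbols, and all 10 were present and high enough to be tested among 13236 genes. RNA came from the oral cancer lines HSC3, HSC4 and SAS, all of them established from human tumours. Each was grown in DMEM, a standard culture medium, and in HPLM, a medium made to resemble human plasma. Both media carried 10% heat-inactivated fetal bovine serum and antibiotics, so the DMEM cultures also received serum, and each of the 6 combinations of line and medium gave 1 library. The time spent in each medium is not given in the sources used here. Levels are given as CPM, estimated counts brought to a common library size, and because the deposited values are corrected for transcript length, levels of different genes can be set side by side. All 10 genes have short transcripts, for which that correction is least certain.

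S100 proteins are small proteins with EF-hand motifs, through which most of them bind calcium, and they act mostly as dimers. Inside cells many of them bind target proteins such as annexins or myosin when calcium rises, and several are also released and act on receptors of neighbouring cells. In squamous epithelium S100A8 and S100A9 form calprotectin, which withholds zinc and manganese from microbes, S100A7 (psoriasin) is an antimicrobial protein of inflamed skin, and S100A2 is a protein of basal keratinocytes whose gene is a known target of the p63 factor. Their genes sit together with those of the cornified envelope in the epidermal differentiation complex.

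In GENCODE 29 (GRCh38) the 10 genes spread over 1634 kb. S100A10 (chr1:151982915-151994390) and S100A11 (chr1:152032506-152047907) come first, and the other 8 follow after a gap of 1309947 bases. These are S100A9 (chr1:153357854-153361027), S100A8 (chr1:153390032-153391188), S100A7 (chr1:153457744-153460701), S100A6 (chr1:153534599-153536244), S100A4 (chr1:153543613-153550136), S100A2 (chr1:153561108-153567890), S100A16 (chr1:153606886-153613145) and S100A14 (chr1:153614255-153616986). S100A9 alone is on the plus strand. S100A4 overlaps S100A3 on the same strand, so reads of that pair may be shared. AL450992.1 and BX470102.1 lie antisense over S100A11 and S100A6, and because the strand setting of the counting is not stated, their reads cannot be told apart here.

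Promoters of 4 of the genes are shown, from 250 bases before to 50 bases after a RefSeq start (GRCh38.p14), because only these 4 hold the TATA box letters TATAAA on the gene's strand between 45 and 20 bases before the start. The match is in capitals. It begins 29 bases before the start in S100A9 (chr1:153357604-153357903, plus strand), 29 in S100A8 (chr1:153391024-153391323, minus strand), 28 in S100A7 (chr1:153460602-153460901, minus strand) and 31 in S100A4 (chr1:153545757-153546056, minus strand).
S100A9: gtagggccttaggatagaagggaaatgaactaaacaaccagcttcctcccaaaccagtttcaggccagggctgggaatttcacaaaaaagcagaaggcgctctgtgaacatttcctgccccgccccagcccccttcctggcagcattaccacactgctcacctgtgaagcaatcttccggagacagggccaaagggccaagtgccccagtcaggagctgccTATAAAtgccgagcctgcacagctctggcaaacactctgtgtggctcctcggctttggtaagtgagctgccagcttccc
S100A8: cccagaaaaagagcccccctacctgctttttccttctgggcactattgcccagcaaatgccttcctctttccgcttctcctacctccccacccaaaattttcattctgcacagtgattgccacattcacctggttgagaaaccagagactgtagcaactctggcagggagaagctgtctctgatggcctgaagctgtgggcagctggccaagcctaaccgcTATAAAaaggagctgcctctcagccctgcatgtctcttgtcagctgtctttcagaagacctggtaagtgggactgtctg
S100A7: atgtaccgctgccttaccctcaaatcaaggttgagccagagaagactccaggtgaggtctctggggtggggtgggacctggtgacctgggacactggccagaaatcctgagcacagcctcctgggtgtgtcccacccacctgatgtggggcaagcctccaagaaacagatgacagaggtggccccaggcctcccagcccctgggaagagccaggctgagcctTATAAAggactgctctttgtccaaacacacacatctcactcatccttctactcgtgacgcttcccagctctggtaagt
S100A4: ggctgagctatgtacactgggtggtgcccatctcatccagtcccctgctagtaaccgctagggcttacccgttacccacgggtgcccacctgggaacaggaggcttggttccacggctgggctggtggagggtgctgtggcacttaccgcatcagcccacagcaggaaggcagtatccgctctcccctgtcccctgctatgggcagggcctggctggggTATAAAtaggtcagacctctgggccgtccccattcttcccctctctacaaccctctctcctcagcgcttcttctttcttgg
Of 35116 human promoter windows of 300 bases, 2.39% hold TATAAA at that place and strand. S100A8 has 3 RefSeq starts, and the window shown is that of a start 115 bases inside the start of its leading transcript. The window of S100A4 does not belong to the start of its leading transcript. S100A9, S100A8 and S100A7 are also the genes whose values differed most between media, while S100A4 was at nearly the same level in both. Those values are sums over all transcripts of a gene. The S100A4 start shown is that of ENST00000468373, which took 5.652% of the gene over all libraries. The S100A8 start shown lies close to that of ENST00000477801, which took 0.5364%. A link between the letters and the medium was not tested.

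Other motifs were searched on both strands of all 14 windows of the 10 genes. The AP-1 motif TGANTCA was found in 1 window, a window of S100A2, beginning 52 bases before the start at position 153565844, and 7.71% of all windows hold it. That start lies 2046 bases from the start of the leading S100A2 transcript and close to that of ENST00000368708 (153565865). Another window of S100A2 did not hold the motif. The C/EBP motif TTGNNCAA was found in 2 windows, those of S100A7 and S100A11, against 5.55% of all windows. The looser C/EBP motif TTNNGNAA, which in S100A11 overlaps TTGNNCAA at the same bases, was found in 7 windows, of which 3 are overlapping windows of S100A8, against 36.8% of all. A match describes letters and not a bound site.

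S100A2, S100A11, S100A10 and S100A6 were the 4 most abundant of the 10 in every library. Summed over the 10 genes, HSC3 had 9205 CPM in DMEM against 10648 in HPLM, HSC4 had 7887 against 7765 and SAS had 6019 against 4619. SAS had the lowest sum in either medium. These sums are led by S100A2, which was first in 5 libraries and second to S100A11 in HSC4 in DMEM, and whose rank among all genes lay between 22 (HSC3 in HPLM) and 125 (SAS in HPLM). S100A11 lay between 993 and 2874 CPM, S100A10 between 804 and 1409, and S100A6 between 542 and 1165. S100A10 and S100A6 overlap in range, and their order turned in HSC3, where S100A10 had 1287 CPM in DMEM against 1165 for S100A6 and 1028 in HPLM against 1042. S100A16 had 319 to 503 CPM and came next in the 3 DMEM libraries, while in HPLM S100A9, S100A14 or both lay above it. S100A9 and S100A14 changed place with line and medium, S100A9 from 54.8 to 744 CPM and S100A14 from 14.2 to 472. S100A8 (0.485 to 92.2 CPM), S100A7 (0 to 33.4) and S100A4 (4.93 to 15.8) were the least abundant in HSC3 and SAS, and in HSC4 S100A14 lay below S100A4 in DMEM and below S100A8 in HPLM.

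**Figure D1:**
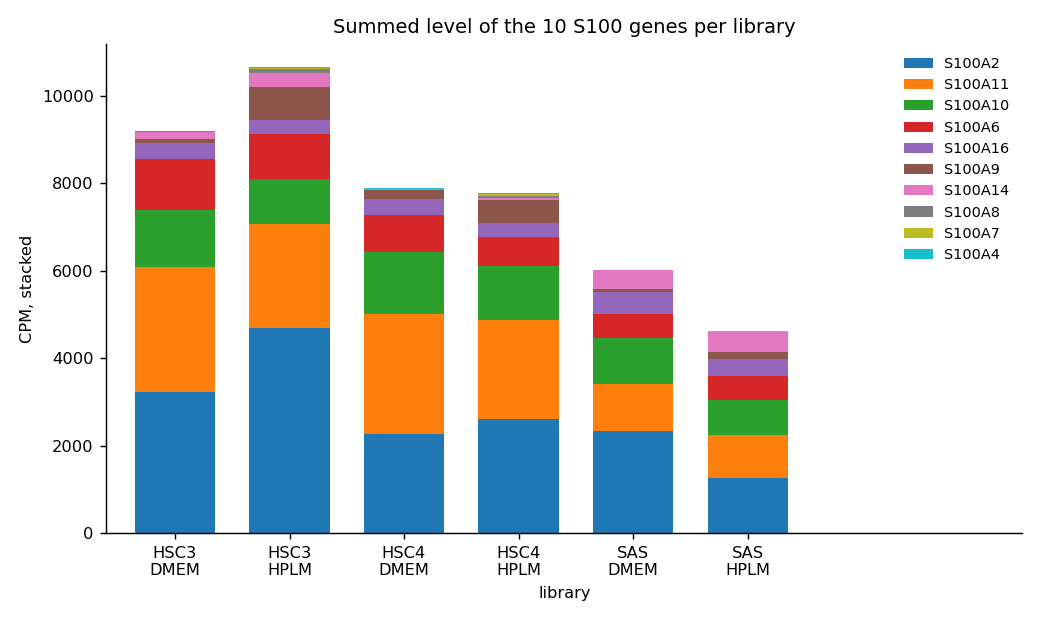
Stacked CPM (linear axis from 0) of the 10 S100 genes in each of the 6 libraries, 1 bar per library. The bars reach from 4619 CPM in SAS in HPLM to 10648 in HSC3 in HPLM, and S100A2, S100A11, S100A10 and S100A6 make up most of each.

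The first comparison asked which S100 genes differ between HPLM and DMEM, with the line as a block. The direction was split by gene: S100A7, S100A8, S100A9 and S100A14 were higher in HPLM in all 3 lines, S100A6, S100A10, S100A11 and S100A16 were lower in all 3, and S100A2 and S100A4 went different ways in different lines. Higher in all 3 lines were thus 4 of 10 genes against 16.9% of all genes tested, and lower in all 3 were 4 of 10 against 17.0%. By edgeR's quasi-likelihood test 0 of the 10 passed the adjusted threshold of 0.05, at which 0.00756% of all genes passed. At an unadjusted p under 0.05 there were 7 of the 10, 4 higher (against 5.57% of all genes) and 3 lower (against 4.55%), and 10.1% of all genes were at such a p in either direction. DESeq2 called 2, S100A8 and S100A9, against 0.960% of all genes, and limma-voom called 1, S100A8, against 0.0680%. The median log2 fold change of the 10 was -0.04, against 0.00 over all genes tested. The genes were chosen with results of these data known, so these shares describe them and support nothing further. In whole cultures, fewer cells that make an RNA and less of it per cell cannot be told apart.

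S100A8 and S100A9, the calprotectin pair, were higher in HPLM in each line. S100A8 had 27.5 CPM in DMEM against 92.2 in HPLM for HSC3, 11.7 against 64.6 for HSC4 and 0.485 against 3.50 for SAS. Each line was higher in HPLM, but the media overlap across lines, since SAS in HPLM lay below HSC3 in DMEM. The log2 fold change of S100A8 was 2.18 ± 0.20 (SE, 3 lines; edgeR adjusted p = 0.121). The ratio of HPLM over DMEM was 3.35 for HSC3, 5.54 for HSC4 and 7.22 for SAS. The call depended on the setting: DESeq2 gave an adjusted p of 1.32e-15, limma-voom 0.0423 and edgeR without HSC3 0.0498, and without HSC4 or SAS edgeR gave 0.333 and 0.187. S100A9 had 97.2 CPM in DMEM against 744 in HPLM for HSC3, 203 against 517 for HSC4 and 54.8 against 158 for SAS. Its log2 fold change was 1.93 ± 0.32 (SE, edgeR adjusted p = 0.280), and without HSC3 it was 1.43 ± 0.12 (edgeR adjusted p = 0.0586). DESeq2 called S100A9 (adjusted p = 0.0114). In each of the 3 lines both genes were 2-fold or more higher in HPLM, which held for 0.219% of all genes. Both are also abundant in neutrophils. The 12 neutrophil and other myeloid markers, which include S100A12, summed to 3.82 to 6.49 CPM in DMEM and 3.77 to 10.1 in HPLM. All 4 of them that could be tested had positive values, with a median log2 fold change of 0.50, and 0 passed by edgeR (1 at an unadjusted p under 0.05). ELANE, FCGR3B and TYROBP were at 0 in all libraries, and 8 of the 12 were under 1 CPM throughout. The part of such cells in the calprotectin values was not tested.

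The ratio of the calprotectin subunits varied between libraries. S100A9 exceeded S100A8 in every library, 3.53-fold in DMEM against 8.07-fold in HPLM for HSC3, 17.4-fold against 8.0-fold for HSC4 and 113-fold against 45-fold for SAS. In HSC3 the ratio was higher in HPLM, in HSC4 and SAS lower. The response of S100A9 in HSC3 exceeded the mean of the other lines by 1.5 ± 0.20 on the log2 scale (SE, unadjusted p = 3.01e-04, edgeR adjusted p = 0.286), and that of S100A8 differed by -0.80 ± 0.26 (edgeR adjusted p = 0.898). These fits have 1 residual degree of freedom and called 0 of 13236 genes for any line, with 686 at an unadjusted p under 0.05 for HSC3. The SAS value of S100A8 in DMEM was assigned wholly to a minor transcript, ENST00000368732, which took 0% of the gene in the other 5 libraries, so that low level rests on an uncertain assignment.

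S100A7, the antimicrobial psoriasin gene, was low in DMEM and had more than 20 CPM in HPLM in HSC3 and HSC4 only. In HSC3 it was listed at 0 in DMEM and had 20.9 CPM in HPLM. HSC4 had 1.53 against 33.4 CPM and SAS 2.32 against 3.61. It was the 1 gene of the 10 whose 3 HPLM libraries all lay above its 3 DMEM libraries, which held for 1.41% of all genes, and 0 of the 10 had all HPLM libraries below all DMEM libraries, against 1.23%. No fold is given for HSC3 because of the 0. The fitted log2 fold change was 3.67 ± 1.07 (SE, edgeR adjusted p = 0.401), and it lay between 2.69 without HSC3 and 5.29 without SAS. In SAS in DMEM all of its value was assigned to the minor transcript ENST00000368722. Its close relative S100A7A lay at 0.378 CPM or less in every library.

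S100A14, whose product is an S100 protein of epithelial cells, had 163 CPM in DMEM against 334 in HPLM for HSC3, 14.2 against 39.4 for HSC4 and 434 against 472 for SAS. The media overlap across lines, and HSC4 was far below both others in either medium. The log2 fold change was 0.85 ± 0.25 (SE, edgeR adjusted p = 0.401). The ratio of HPLM over DMEM was 2.05 for HSC3, 2.78 for HSC4 and 1.09 for SAS. The SAS response differed from the mean of the others by -1.12 ± 0.26 (SE, edgeR adjusted p = 0.863).

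**Figure D2:**
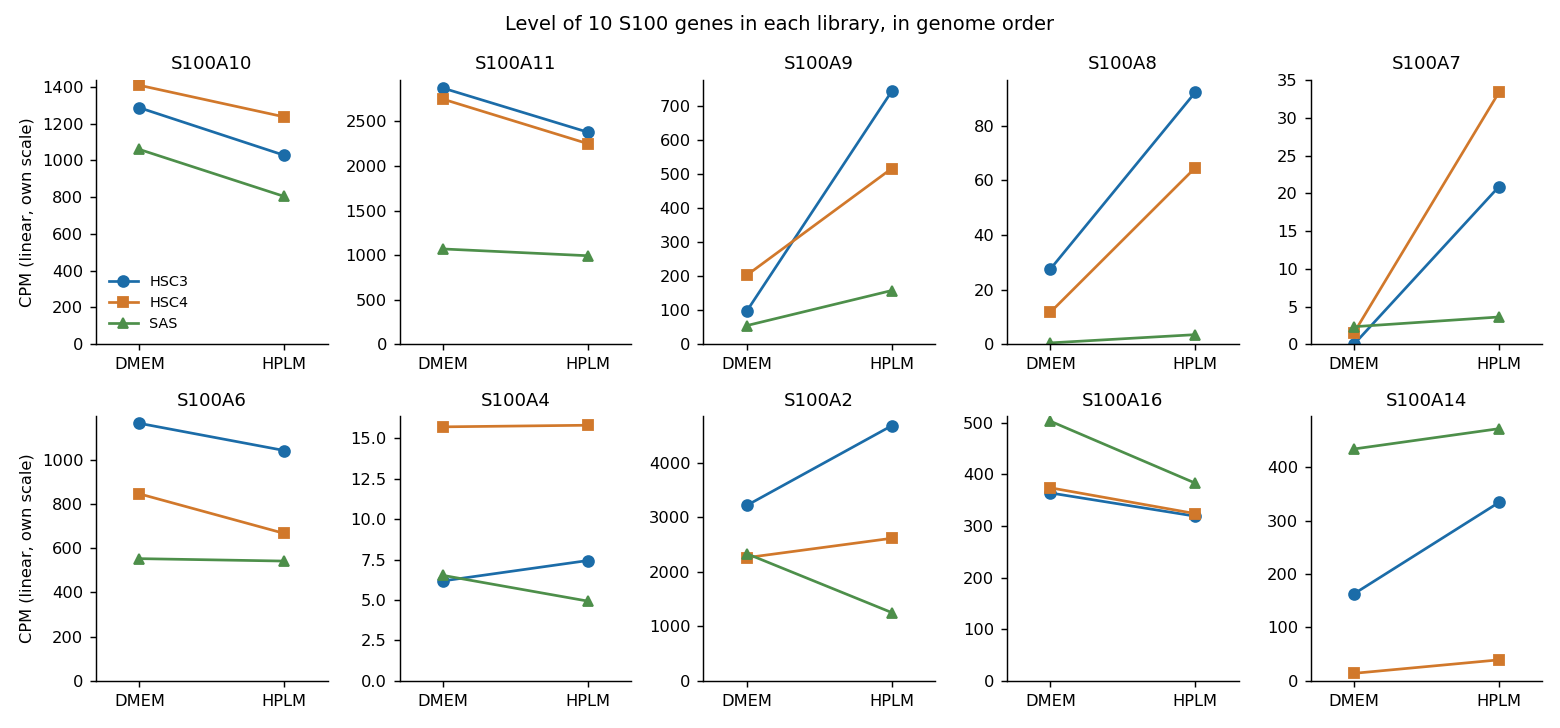
Level of each of the 10 S100 genes (CPM, linear axis from 0, own scale per panel) in DMEM and HPLM, with 1 point per library and a line joining the libraries of 1 cell line. S100A9, S100A8 and S100A7 slope upward in all lines, S100A10, S100A11, S100A6 and S100A16 downward, and S100A2 upward in HSC3 and HSC4 and downward in SAS.

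The 4 genes that were lower in HPLM in all lines encode widely expressed intracellular proteins, and their differences were small. S100A10, the partner of annexin A2 in a membrane-bound tetramer, had 1287 CPM in DMEM against 1028 in HPLM for HSC3, 1409 against 1237 for HSC4 and 1060 against 804 for SAS. Its log2 fold change was -0.30 ± 0.09 (SE, edgeR adjusted p = 0.394). S100A11, a partner of annexin A1, had 2874 against 2379 for HSC3, 2750 against 2250 for HSC4 and 1069 against 993 for SAS, or -0.22 ± 0.08 on the log2 scale (edgeR adjusted p = 0.468). S100A16 had 364 against 319 for HSC3, 374 against 324 for HSC4 and 503 against 383 for SAS, with -0.27 ± 0.09 (edgeR adjusted p = 0.423). S100A6, or calcyclin, had 1165 against 1042 for HSC3, 846 against 667 for HSC4 and 553 against 542 for SAS, with -0.18 ± 0.09 (edgeR adjusted p = 0.575). For all 4 the media overlap across lines. In S100A10, S100A11 and S100A6 the spread between lines within a medium was wider than the difference between media. In S100A16 the overlap was that of SAS in HPLM, at 383 CPM, above HSC3 and HSC4 in DMEM, at 364 and 374.

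S100A2 differed between media in opposite ways. It had 3220 CPM in DMEM against 4682 in HPLM for HSC3, 2262 against 2617 for HSC4 and 2335 against 1255 for SAS. The HPLM values spread from the lowest to the highest of all 6 libraries, while those in DMEM lay closer together. HSC3 had a log2 ratio of 0.54, HSC4 of 0.21 and SAS of -0.90, and over the lines the log2 fold change was -0.04 ± 0.27 (SE, edgeR adjusted p = 0.971), or 0.37 ± 0.14 without SAS (edgeR adjusted p = 0.632). The SAS response differed from the mean of the others by -1.27 ± 0.25 (SE, unadjusted p = 0.00222, edgeR adjusted p = 0.843). TP63, the gene of the p63 factor of basal epithelium, had 76.9 CPM in DMEM against 123 in HPLM for HSC3, 39.2 against 43.9 for HSC4 and 49.1 against 35.6 for SAS. Its sign was that of S100A2 in each line, with 0.14 ± 0.21 over the lines (SE, edgeR adjusted p = 0.870). TP63 is 1 of 11 listed factors, and CEBPD and CEBPB shared these signs, while the rest of the list did not. CEBPD had 11.4 CPM in DMEM against 13.3 in HPLM for HSC3, 9.17 against 10.9 for HSC4 and 12.4 against 8.96 for SAS. CEBPB had 84.7 against 91.5 for HSC3, 78.9 against 103 for HSC4 and 46.9 against 46.7 for SAS. The part of TP63 or of any other listed factor in the S100A2 values was not tested. S100A4, a myosin-binding S100 protein known from metastasis research, was low throughout, with 6.18 CPM against 7.44 for HSC3, 15.7 against 15.8 for HSC4 and 6.52 against 4.93 for SAS. Its log2 fold change was -0.03 ± 0.17 (SE, edgeR adjusted p = 0.967), and 0.13 ± 0.18 without SAS (edgeR adjusted p = 0.901).

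**Figure D3:**
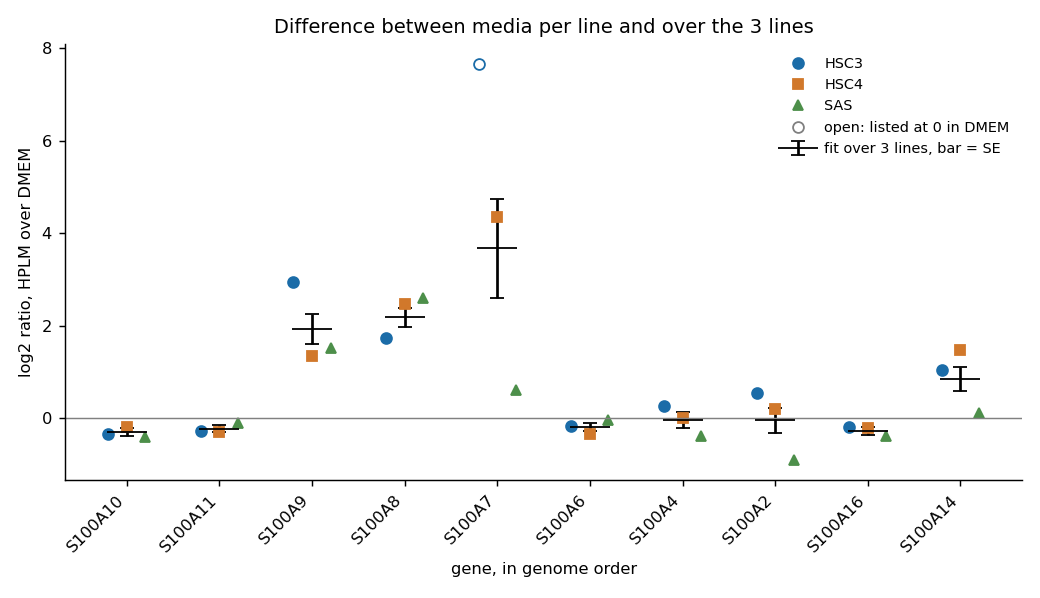
Log2 ratio of HPLM over DMEM for each gene, with a coloured symbol per line (prior count of 2) and a black bar for the fit over 3 lines with its SE; the open symbol is S100A7 in HSC3, whose size rests on a DMEM value of 0. S100A8 and S100A9 lie above 1 in all lines, and S100A2 spans from 0.54 in HSC3 to -0.90 in SAS.

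The second set of comparisons asked how the genes differ between the lines, with the medium as the other term. A line has 2 libraries, 1 per medium, so p-values measure the spread of a line difference over the media, and the 3 comparisons share libraries. HSC4 differed from HSC3 in 4 of the 10 genes (37.4% of all genes passed), with 1 higher and 3 lower against 18.8% and 18.6% of all genes. SAS differed from HSC3 in 7 (39.4%), with 2 higher and 5 lower against 18.8% and 20.6% of all genes, and from HSC4 in 8 (41.3%), with 2 higher and 6 lower against 20.0% and 21.3%. The median log2 fold change of the 10 was -0.76 for SAS against HSC3 and -0.89 for SAS against HSC4, beside -0.01 over all genes tested in both, and -0.02 for HSC4 against HSC3, beside 0.00. Of 9 squamous epithelial markers, 7 were lower in SAS than in HSC3 and 1 was higher, with a median log2 fold change of -1.46. For SAS against HSC4, 5 were lower and 2 higher, with a median of -0.47. For HSC4 against HSC3, where the S100 median was -0.02, 4 markers were lower and 2 higher, with a median of -0.53. The summed level of the markers was 6377 CPM in DMEM and 5461 in HPLM for HSC3, 3098 and 2976 for HSC4, and 2585 and 1901 for SAS. The part of these markers in the S100 differences was not tested. Of the 19 S100 calls 8 held under all 13 alternatives, and the other 11 ended under at least 1.

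S100A8 and S100A14 set the lines apart most. Expression of S100A8 was lower in SAS, at -5.08 ± 0.28 against HSC3 on the log2 scale (SE, edgeR adjusted p = 4.17e-04) and -4.22 ± 0.28 against HSC4 (edgeR adjusted p = 5.88e-04), and both calls held under all alternatives. HSC4 had less than HSC3, at -0.86 ± 0.21 (edgeR adjusted p = 0.0240), a call that ended without HSC3 in DMEM (adjusted p = 0.117), HSC4 in DMEM (0.181) or HSC4 in HPLM (0.0575). S100A14 was highest in SAS and lowest in HSC4. It was lower in HSC4 than in HSC3 by -3.26 ± 0.32 (SE, edgeR adjusted p = 0.00164) and higher in SAS than in HSC4 by 4.26 ± 0.34 (edgeR adjusted p = 7.93e-04), both under all alternatives. SAS exceeded HSC3 by 1.00 ± 0.29 (edgeR adjusted p = 0.0402), and this call ended without either HSC3 library (adjusted p = 0.196 without that in DMEM, 0.0966 without that in HPLM), without SAS in DMEM (0.207), without the low-count filter (0.0591) and with DESeq2 (0.0845).

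S100A9 was lower in SAS than in both other lines, by -1.62 ± 0.38 against HSC3 (SE, edgeR adjusted p = 0.0200) and -1.82 ± 0.38 against HSC4 (edgeR adjusted p = 0.0126). Both calls ended without SAS in HPLM (edgeR adjusted p = 0.138 and 0.0771), the first also without SAS in DMEM (0.0514) and the second without HSC4 in DMEM (0.101). HSC3 and HSC4 did not differ in S100A9 by the test (0.21 ± 0.37, edgeR adjusted p = 0.696), and without HSC3 in HPLM, the library with 744 CPM, HSC4 was higher by 1.01 (edgeR adjusted p = 0.0133). S100A7 passed in no comparison of lines, with SEs from 1.07 to 1.34 on the log2 scale, and its SAS values against both lines changed sign without SAS in HPLM (2.40 against HSC3 and 1.19 against HSC4). Without SAS in DMEM it was lower in SAS than in HSC4 by -3.50 (edgeR adjusted p = 0.0371).

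Of the annexin partners, S100A11 was lower in SAS by -1.34 ± 0.11 against HSC3 (SE, edgeR adjusted p = 7.91e-04) and -1.27 ± 0.10 against HSC4 (edgeR adjusted p = 8.49e-04), under all alternatives, and HSC4 and HSC3 had -0.07 ± 0.10 (edgeR adjusted p = 0.616). S100A10 was lower in SAS than in HSC4 by -0.52 ± 0.10 (SE, edgeR adjusted p = 0.0116), a call that ended without HSC4 in HPLM (0.0788), SAS in DMEM (0.0567) or SAS in HPLM (0.111). Against HSC3 it had -0.32 ± 0.10 (edgeR adjusted p = 0.0564), which passed with DESeq2 (0.0241) and limma-voom (0.0456). The ratio of S100A10 to S100A11 was accordingly 0.991 in DMEM and 0.810 in HPLM in SAS, against 0.432 to 0.550 in the other 4 libraries, so SAS alone had the pair at similar levels. S100A6 was lower in SAS than in HSC3 by -1.01 ± 0.12 (edgeR adjusted p = 0.00211), under all alternatives. It lay between in HSC4, with -0.55 ± 0.12 against HSC3 (edgeR adjusted p = 0.0142, and from 0.0565 to 0.0991 without HSC3 in DMEM, HSC3 in HPLM or HSC4 in HPLM) and -0.46 ± 0.12 for SAS against HSC4 (edgeR adjusted p = 0.0238, and from 0.0645 to 0.189 without HSC4 in DMEM, SAS in DMEM or SAS in HPLM).

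S100A4 was highest in HSC4. It exceeded HSC3 by 1.21 ± 0.21 (SE, edgeR adjusted p = 0.00781, and from 0.0528 to 0.0616 without HSC3 in DMEM, HSC4 in DMEM or HSC4 in HPLM), and SAS lay below HSC4 by -1.46 ± 0.21 (edgeR adjusted p = 0.00422), under all alternatives. S100A2 was lower in SAS than in HSC3 by -1.15 ± 0.33 (SE, edgeR adjusted p = 0.0369). That call ended without HSC3 in HPLM (0.162), SAS in HPLM (0.0984) or either HSC4 library (0.0575 without that in DMEM, 0.0583 without that in HPLM). With DESeq2 it had an adjusted p of 0.117 and without the low-count filter 0.0521. HSC4 against HSC3 had -0.70 ± 0.32 in S100A2 (edgeR adjusted p = 0.138), which passed without SAS in DMEM (0.0190) or in HPLM (0.0191). S100A16 had the smallest differences that passed, 0.37 ± 0.11 for SAS over HSC3 and 0.34 ± 0.11 for SAS over HSC4 (SE, edgeR adjusted p = 0.0387 and 0.0487). Both calls ended without any 1 of the 6 libraries, with edgeR adjusted p from 0.0616 to 0.261 against HSC3 and from 0.0582 to 0.312 against HSC4, and with no scaling factor the second value was 0.19 (edgeR adjusted p = 0.245).

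**Figure D4:**
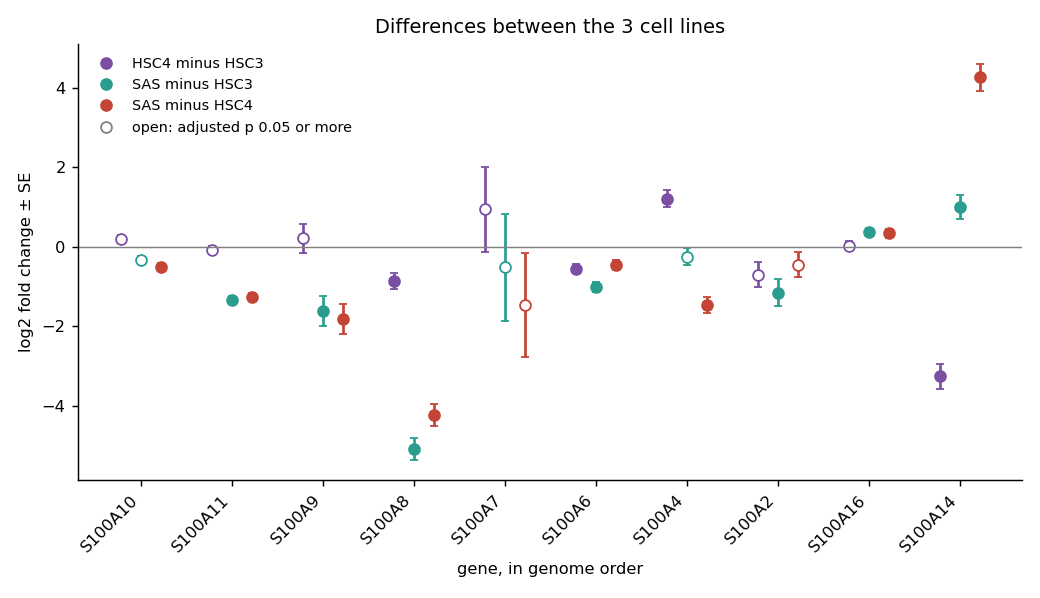
Log2 fold change with its SE between each pair of cell lines for the 10 S100 genes, filled where the edgeR adjusted p was under 0.05 and open otherwise. S100A8 lies at -5.08 and -4.22 for SAS against HSC3 and HSC4, and S100A14 at -3.26 for HSC4 against HSC3 and 4.26 for SAS against HSC4.

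Most genes were carried by 1 transcript. S100A9 has 1 transcript in the table, and ENST00000271638 made up 99.93% of S100A11, ENST00000368733 99.23% of S100A8, ENST00000368719 94.32% of S100A6 and ENST00000344616 88.45% of S100A14 over all libraries. S100A2 was split between ENST00000368710, at 43.9%, and ENST00000368708, at 41.73%, whose starts lie at positions 153567890 and 153565865. The first took 44.03% of S100A2 in DMEM against 48.01% in HPLM for HSC3, 40.13% against 45.86% for HSC4 and 41.59% against 35.49% for SAS, thus more in HPLM where S100A2 was higher and less where it was lower. Such shares are estimates for overlapping transcripts and have no replicate. S100A10 was split between ENST00000368809 (77.2%) and ENST00000368811 (20.54%), with the first between 74.3% and 79.01% in all libraries. S100A4 was divided among 6 transcripts, the leading one, ENST00000368714, taking from 23.48% to 70.56%.

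Other S100 genes were mostly low. Of 6 more on chromosome 1, 5 were tested, and 0 of them passed between media by edgeR, with 1, S100A12, at an unadjusted p under 0.05 (10.1% of all genes). S100A13 was the most abundant, at 104 to 162 CPM, and was lower in HSC4 than in HSC3 by -0.49 (edgeR adjusted p = 0.0324). S100A12, a myeloid S100 gene between S100A9 and S100A8, had 0.209 CPM in DMEM against 2.41 in HPLM for HSC3, 0.860 against 2.86 for HSC4 and 0.215 against 0.212 for SAS (1.93 ± 0.68, SE, edgeR adjusted p = 0.447). Of 4 S100 genes on other chromosomes S100P alone was tested, at 1.02 CPM on average. The 7 fused-type S100 genes, such as the filaggrin gene FLG, lay under 1 CPM in every library and were not tested.

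Partners and receptors of S100 proteins passed between media in 0 of 9 and 0 of 5 tested genes by edgeR, with 1 and 0 at an unadjusted p under 0.05 (10.1% of all genes). ANXA2, which binds S100A10, had 2321 CPM in DMEM against 2398 in HPLM for HSC3, 3928 against 4079 for HSC4 and 2220 against 2146 for SAS, and was higher in HSC4 than in HSC3 by 0.76 (edgeR adjusted p = 0.00310). ANXA1, the partner of S100A11, named after its values were seen, had 0.21 ± 0.10 between media (SE, edgeR adjusted p = 0.549). ANXA1 was higher in HSC4 than in HSC3 by 0.53 (edgeR adjusted p = 0.0200) and lower in SAS than in HSC4 by -0.63 (edgeR adjusted p = 0.0101). SAS and HSC3 did not differ in ANXA1 by the test (-0.11, edgeR adjusted p = 0.528). ANXA6 was lower in HSC4 and SAS than in HSC3, by -4.11 and -2.97 (edgeR adjusted p = 0.00159 and 0.00245). Its levels were low, at 5.81 CPM in DMEM and 14.4 in HPLM for HSC3, 0.478 and 0.594 for HSC4 and 0.646 and 1.96 for SAS. AHNAK, a scaffold of the S100A10 complex, was lower in SAS than in HSC4 by -0.82 (edgeR adjusted p = 0.00274). CACYBP and SUGT1, which bind S100A6, were higher in SAS than in HSC4 by 0.70 and 0.65 (edgeR adjusted p = 0.00617 and 0.00759), where S100A6 itself was lower. Among receptors, NPTN, which binds S100A8, was highest in HSC4. It exceeded HSC3 by 1.10 (edgeR adjusted p = 0.00301), and SAS lay below HSC4 by -1.5 (edgeR adjusted p = 0.00123). SAS and HSC3 did not differ in NPTN by the test (-0.40, edgeR adjusted p = 0.0695). ALCAM, a cell adhesion receptor, was higher in SAS than in HSC3 by 1.00 (edgeR adjusted p = 0.00200). The receptor genes AGER and TLR4 had no more than 4.32 CPM in any library.

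Of 11 transcription factors known to act on S100 genes 0 passed between media by edgeR, with 2 at an unadjusted p under 0.05, where 10.1% of all genes were. These 2 were JUN (0.52 ± 0.09, SE, edgeR adjusted p = 0.315), named after its values were seen, and GRHL3 (1.81 ± 0.53, edgeR adjusted p = 0.401). CEBPB and STAT3 were lower in SAS than in HSC3 by -0.91 and -0.83 (edgeR adjusted p = 0.00405 and 0.00525). In that comparison 3 of the 11 passed as lower and 1 as higher, against 20.6% and 18.8% of all genes. The part of these factors in the S100 differences was not tested. RELA, an NF-kB subunit gene, was lower in SAS than in HSC4 by -0.84 (edgeR adjusted p = 0.00374) and higher in HSC4 than in HSC3 by 0.54 (edgeR adjusted p = 0.0161). TP63 was lower in HSC4 and SAS than in HSC3 by -1.25 and -1.21 (edgeR adjusted p = 0.0135 and 0.0146), and FOS was lower in HSC4 than in HSC3 by -1.54 (edgeR adjusted p = 0.0190). GRHL3 was higher in SAS than in HSC3 by 3.41 (edgeR adjusted p = 0.0114). Its levels were low, at 0.366 CPM in DMEM and 0.359 in HPLM for HSC3 against 1.62 and 8.43 for SAS.

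For genes whose log2 CPM spanned 2 or more over the 6 libraries, the 3 genes of most similar pattern were found by the root mean square difference of log2 CPM around each gene's mean. For S100A9 these were ZC3H12A (0.34), CXCL3 (0.36) and BCL2A1 (0.43), all of them known as genes induced by inflammatory signals. CXCL3 and BCL2A1 were low, at 1.29 to 23.4 CPM and 0.108 to 5.03 CPM over the libraries. ZC3H12A, the gene of an RNase that degrades inflammatory mRNAs, had 18.2 CPM in DMEM against 76.6 in HPLM for HSC3, 31.5 against 54.2 for HSC4 and 9.48 against 20.5 for SAS. For S100A14 they were FHL1 (0.29), CCDC162P (0.31) and SPRN (0.33), each under 7 CPM in every library. For S100A8 they were CYB5R2, AOX1 and RPS6KA2, at 0.76 to 0.83, and for S100A7 SNRPGP4, LCE3D and MUC1, at 1.5 to 1.60. S100A8 lay 1.60 from S100A9, farther than from those 3, so the calprotectin genes were not nearest to each other in pattern. Over 6 libraries of 3 lines such nearness describes these samples only.

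The cultures were checked against markers of cell types. All 9 squamous epithelial markers were tested, and their summed level lay between 2585 and 6377 CPM in DMEM and between 1901 and 5461 in HPLM, with KRT14 at 4.40 and 10.8 CPM in HSC4. Fibroblast markers summed to 5.97 CPM at most and melanocyte markers to 3.23. Estimated counts per library lay between 17716006 and 20171713, and no library has a repeat of its own line and medium.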

How the data were processed

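Poly(A) RNA libraries, strand-specific per the labels' protocols, were made from 3 lines in 2 media. The submitters' processing notes name FastQC, kallisto and hg38; the sources used here give no versions, annotation or strand setting. The authors deposited expected counts per transcript (scaled TPM: length-corrected abundances scaled to library size, so not reads, and no counting interval is given). Columns were matched by line and medium in their names; the columns taken for DMEM name the line only, with an unexplained ending.

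The 1312 repeated rows were counted once and values were summed by symbol and rounded. R 4.3.3, edgeR 4.0.16 (TMM, filterByExpr with a minimum count of 10, quasi-likelihood test with line and medium as terms, 2 residual degrees of freedom, Benjamini-Hochberg over 13236 genes), limma 3.58.1 and DESeq2 1.42.0 were used. An added fit gave each line's response its own term. Each SE was derived from the fold change and the F statistic. Nothing says that libraries came from separate cultures beyond line and medium. P-values between media measure the spread of the response over lines. The code was tested on simulated data.

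The line pairs the libraries: deviations from the medium mean correlated at 0.779 to 0.805 within lines and at -0.335 or less between lines. Deviations around a mean of 3 libraries add up to 0, so positive values within lines bring negative ones between lines by construction. The genes and lists were chosen with earlier results of these data known. Named are the 10 genes, called members of each list (at most 6, smallest p first, otherwise the 2 of smallest p with a mean CPM of 1 or more) and the 3 genes of most similar pattern (1 gene of the partner list is not reported here); the TATA box search was added after the promoters were read. Alternatives were scaling, filter, tool, repeated rows, the block, single libraries or lines left out, protein-coding transcripts and the prior count.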

Additional observations from a re-analysis of the deposited data

Results flagged for a closer look

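S100A2 differed between media in opposite ways in 2 lines, each with 1 library per medium: its log2 ratio of HPLM over DMEM was 0.54 in HSC3 and -0.90 in SAS. Listed were genes with log2 ratios of at least 0.5 in opposite directions in 2 lines, and S100A2 was the 1 such gene of the 10. A test of the SAS response against the mean of the other lines gave -1.27 ± 0.25 on the log2 scale (SE, edgeR adjusted p = 0.843), which did not pass.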

How the results depend on the processing

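Over 40 results with a test, 500 values under alternatives were computed: 428 kept direction and side of the threshold, 47 no longer passed, 11 newly passed and 14 changed sign. Between media, where 0 of the 10 genes passed, 2 passed with DESeq2, 1 with limma-voom and from 0 to 1 without 1 line (1 without HSC3). Genes passing out of all tested numbered 1 by edgeR, 0 with upper-quartile scaling, without the filter or without the block, 127 with DESeq2 and 9 with limma-voom, and from 0 to 4 without 1 line. Without the line as replicate block 0 of the 10 passed, and S100A2 had 0.13 in place of -0.04; the block changed no other direction. Leaving out 1 library moved the count of the 10 genes that passed to 1 to 5 for HSC4 against HSC3, 4 to 5 for SAS against HSC3 and 4 to 7 for SAS against HSC4, and without the filter it was 4 for SAS against HSC3. Genes passing out of all tested then numbered 2445, 2849 and 2786 at the lowest in these comparisons, against 4952, 5213 and 5462 with all libraries. With 1 line or library left out, log2 fold changes that changed sign ranged as follows. Between media S100A2 lay between -0.34 and 0.37 and S100A4 between -0.17 and 0.13, both positive without SAS. For HSC4 against HSC3, S100A9 lay between -0.50 (without HSC3 in DMEM) and 1.01, with -0.21 without HSC4 in DMEM, and S100A16 between -0.04 and 0.09, with -0.01 without HSC4 in HPLM. For SAS against HSC3, S100A4 lay between -0.52 and 0.02 and S100A7 between -2.28 and 7.46, with 2.40 without SAS in HPLM. For SAS against HSC4, S100A2 lay between -1.15 and 0.14 and S100A7 between -3.50 and 1.19. S100A11 had 0.07 for HSC4 against HSC3 with no scaling factor, and S100A7 1.55 for SAS against HSC3 with DESeq2. Where a line is left with 1 library, that library is assumed to vary like the others. Apart from fewer samples or genes, the cause was not tested. With protein-coding transcripts alone all 10 mean levels moved by less than their SD, and with a prior count of 0.5 the log2 ratio of S100A7 in HSC3 was 9.66 in place of 7.66, the other 29 ratios moving by less than 0.5.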
